A study of Bos taurus with 19 samples.

Results

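The genes described here belong to 3 linked vasoactive systems, those of angiotensin, endothelin and nitric oxide, and were AGTR1, AGTR2, ACE, NOS3, EDN1, EDNRA, EDNRB and ECE1. They were chosen by gene symbol, taking every probe set of the bovine array whose annotation gives a single symbol that is on this list. This found 7 of the 8 genes and 11 of 24127 probe sets, with 3 probe sets for AGTR2, 3 for ECE1 and 1 for each of the others. No probe set here carries ACE as its single symbol, so angiotensin-converting enzyme was not analysed here.

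Angiotensin II and endothelin-1 are peptides that act on receptors coupled to G proteins, and both are known for constricting small arteries. Angiotensin-converting enzyme releases angiotensin II from its precursor and endothelin-converting enzyme releases endothelin-1 from big endothelin, while nitric oxide, made in the endothelium, relaxes the same vessels. The theca interna is the vascular and steroid-producing layer of the follicle wall, and the granulosa layer inside it has no vessels of its own.

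The data are log2 signals from 19 Affymetrix bovine arrays of theca interna, dissected from the walls of antral follicles of Bos taurus heifers that were not pregnant, once their granulosa cells had been scraped off. Of these, 5 arrays were of small healthy follicles of 3 to 5 mm whose basal granulosa cells were rounded, 5 were of small healthy follicles of the same size whose basal granulosa cells were columnar, 4 were of large healthy follicles over 9 mm, and 5 were of small atretic follicles of 3 to 5 mm. The animals carried no transgene and received no treatment that the labels name, and nothing in the labels says that the follicles came from separate animals, so p-values reflect no more than the spread among these follicles. RNA of the large, small healthy and small atretic follicles was extracted with different kits according to the labels. The labels also give 250 ng as labelled for the atretic against 2 to 5 ug for the others, so extraction and follicle type cannot be told apart. In bulk RNA of this kind, fewer cells of a type and less RNA per cell cannot be told apart either.

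The steroid-producing theca was represented on every array, though not evenly by all its genes. INSL3, a hormone of thecal cells, lay between log2 signals of 10 and 12.5 on all 19 arrays, and the mean over 6 thecal steroidogenic genes ran from 6.28 to 9.65. Of these, LHCGR was low, from 2.1 in an atretic to 4.7 in a large follicle, and CYP17A1 ran from 3.0 to 8.0 among atretic follicles. Endothelial genes averaged 5.18 to 6.16 per array and smooth muscle and pericyte genes 5.63 to 6.93. The array's KDR probe set, for an endothelial receptor of vascular endothelial growth factor, stayed below a log2 signal of 3, the limit of detection used here. Genes of granulosa cells averaged 7.01 in large follicle 2 and 6.43 in columnar follicle 1, the highest values of all arrays, against 4.85 to 6.39 in the others.

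Among the endothelin genes, EDNRA, the receptor that carries the contractile response of smooth muscle to endothelin-1, rose in atretic follicles. Its log2 signal was 6.6, 7.0, 7.0, 7.2 and 7.1 in the 5 small atretic follicles, 6.1, 6.5, 6.9, 6.6 and 5.7 in the 5 rounded follicles, and 6.0, 6.6, 6.2, 6.6 and 6.3 in the 5 columnar follicles. Of the 5 atretic follicles, 4 lay above all 10 small healthy ones, and the groups overlapped through the first atretic follicle. The difference was 0.63 on the log2 scale (SE 0.17, 95% interval 0.28 to 0.98), a 1.55-fold rise from a mean of 6.35 ± 0.36 (SD, n = 10) to 6.98 ± 0.23 (SD, n = 5). It passed limma's test after Benjamini-Hochberg adjustment across the array (adjusted p = 0.0119). An exact two-sided permutation test of this probe set gave p = 0.00566, which was 0.125 after adjustment over 44 such tests and did not pass. The call was lost against the rounded follicles alone, where the difference was 0.62 (limma adjusted p = 0.102), and held without columnar follicle 1. No large follicle entered this fit.

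EDNRA was 7.0, 6.5, 6.4 and 6.4 in the 4 large follicles. The first lay just above the highest small healthy follicle, at 6.9, and the other 3 lay within the small healthy range. Large minus small healthy was 0.23 (limma adjusted p = 0.469), and the difference did not pass. The means stood in the order columnar, rounded, large and atretic, but neighbours in that order did not differ beyond their spread, the nearest to doing so being large and atretic (exact permutation p = 0.0714).

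EDN1 encodes the precursor of endothelin-1, and it had the widest spread of these genes within each of the 4 groups. It read 4.1, 3.4, 5.5, 3.4 and 2.5 in rounded follicles, 3.1, 3.0, 4.5, 4.5 and 4.0 in columnar, 5.4, 4.0, 4.5 and 5.4 in large, and 4.5, 4.3, 4.3, 4.8 and 5.8 in atretic follicles. The third rounded follicle reached the level of the highest large ones, so that every pair of groups overlapped. Large minus small healthy was 1.03 on the log2 scale (SE 0.45, 95% interval 0.07 to 1.98) and did not pass limma's test (adjusted p = 0.179). Atretic minus small healthy was 0.94 (SE 0.40, 95% interval 0.08 to 1.80) and did not pass either (limma adjusted p = 0.0829), although all 5 atretic follicles were above the small healthy mean. Without the third rounded follicle this second difference was 1.13 and passed (limma adjusted p = 0.0198). Over all 26 alternative fits it passed in 2. The rounded and columnar means were 3.78 ± 1.12 and 3.82 ± 0.73 (SD, n = 5 each), and the 95% interval of their difference ran from -1.10 to 1.02, which takes in a 2-fold difference in either direction.

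EDNRB encodes the second endothelin receptor, known on endothelium for clearing endothelin-1 and for releasing nitric oxide. Its log2 signal ran from 1.2 to 1.7 over the 19 arrays and passed the detection limit on none of them, so it was left out of the limma tests and no fold is given. The small healthy follicles lay between 1.2 and 1.4, the large between 1.2 and 1.7, and the atretic between 1.3 and 1.7.

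ECE1, the converting enzyme for endothelin-1, was measured by 3 probe sets whose signals are not set against each other. The brightest lay between 6.7 and 7.5 on every array. The second ranged from 4.8 to 6.1. On the dimmest, the signals were 4.5, 4.4, 3.8, 4.0 and 3.9 in rounded, 4.2, 3.8, 4.1, 3.9 and 3.9 in columnar, 3.7, 4.7, 4.9 and 4.8 in large, and 3.7, 3.9, 4.3, 3.7 and 3.3 in atretic follicles. Large follicles 2 to 4 lay above every small healthy follicle, but large follicle 1 lay below all of them.

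Large minus small healthy for the 3 ECE1 probe sets, from brightest to dimmest, was 0.05, 0.21 and 0.48, and none passed limma's test (adjusted p = 0.812, 0.449 and 0.153). On the dimmest probe set the exact permutation test gave p = 0.0410 (0.279 after adjustment over 44 such tests). Without large follicle 1 its difference was 0.75 and passed (limma adjusted p = 0.0106). It passed in 1 of 25 alternative fits. Atretic minus small healthy was -0.17, -0.32 and -0.27, none of which passed (limma adjusted p = 0.216, 0.132 and 0.167). Without atretic follicle 3 the second was -0.50 (limma adjusted p = 0.015) and the dimmest -0.40 (limma adjusted p = 0.0429), and both passed. The second passed in 1 of 26 alternative fits and the dimmest in 1 of 25. Over the 19 arrays, with group means removed, the probe sets moved together, with Pearson correlations of 0.78, 0.89 and 0.85.

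**Figure D1:**
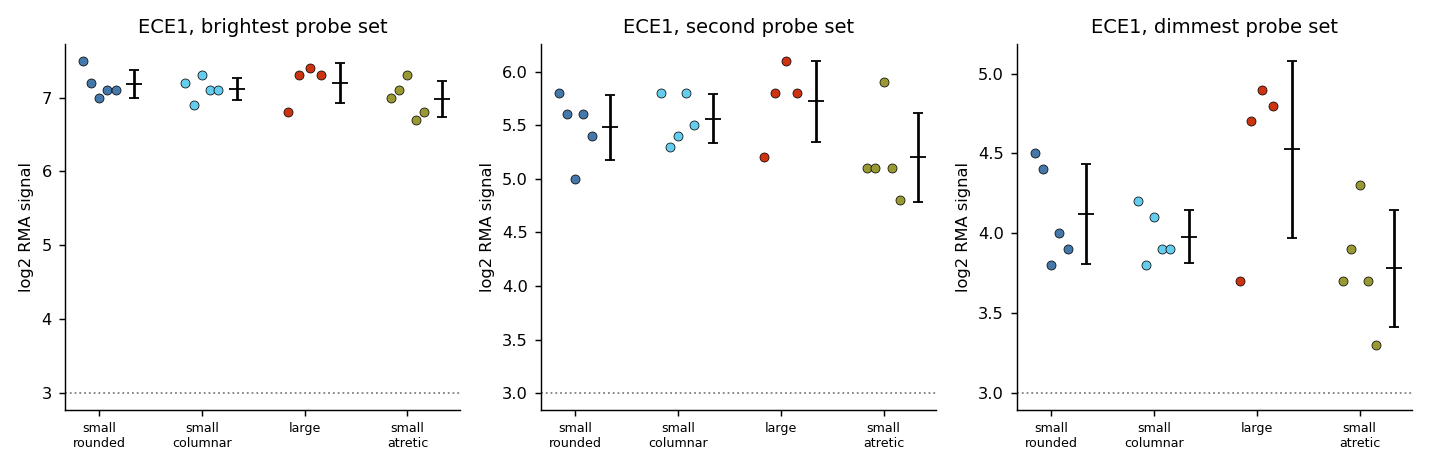
Log2 signal (vertical axis) of each of the 3 ECE1 probe sets by follicle group (horizontal axis), 1 dot per follicle with the group mean and SD. Large follicle 1 lies apart from the other 3 large follicles, at 6.8 on the brightest probe set and 3.7 on the dimmest.

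Of the angiotensin genes, AGTR1, the receptor through which angiotensin II acts on smooth muscle and on steroid-producing cells, rose in large follicles. The signals were 6.0, 5.4, 5.9, 6.2 and 5.6 in rounded, 5.2, 5.4, 5.2, 6.3 and 5.8 in columnar, 6.3, 6.4, 6.5 and 6.5 in large, and 6.1, 5.6, 6.5, 6.6 and 6.1 in atretic follicles. Of the 4 large follicles, 3 were above every small healthy one, and the first equalled the fourth columnar follicle at 6.3. Large minus small healthy was 0.72 on the log2 scale (SE 0.19, 95% interval 0.32 to 1.13), a 1.65-fold rise from 5.70 ± 0.40 (SD, n = 10) to 6.42 ± 0.10 (SD, n = 4). The exact permutation test gave p = 0.005, which was 0.125 after adjustment over 44 such tests and did not pass. By limma the difference passed by the narrowest of margins, at an adjusted p of 0.0499, and it was number 556 of the 557 probe sets that passed. Leaving out any 1 of 11 of the 14 healthy follicles ended the call, and of these single removals only those of rounded follicle 1, rounded follicle 4 and columnar follicle 4 kept it, with the difference between 0.67 and 0.79 throughout. Without large follicle 2 and columnar follicle 1 together it was 0.68 (limma adjusted p = 0.121).

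For AGTR1, atretic minus small healthy was 0.48 (SE 0.20, 95% interval 0.05 to 0.91), and this did not pass limma's test (adjusted p = 0.0768). It passed without atretic follicle 2, at a difference of 0.63 (limma adjusted p = 0.0368), or without columnar follicle 4, at 0.55 (limma adjusted p = 0.0392). Among 26 alternative fits it passed in 4. The AGTR1 means stood in the order columnar, rounded, atretic and large, and neighbours in this order did not differ beyond their spread.

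AGTR2 encodes the other angiotensin II receptor. Its brightest probe set read 2.7, 3.1, 2.7, 2.8 and 2.6 in rounded, 2.7, 2.8, 3.4, 2.7 and 3.0 in columnar, 2.9, 3.1, 3.3 and 3.2 in large, and 2.9, 2.9, 3.0, 2.7 and 2.7 in atretic follicles. It exceeded the limit of 3 on 3 of 4 large arrays, 1 of 5 rounded, 1 of 5 columnar and 0 of 5 atretic arrays, so it was tested only where large follicles took part, and passing that filter is no result about it. Large minus small healthy was 0.28 and did not pass (limma adjusted p = 0.216). The second and the dimmest probe set were below 3 on all 19 arrays, with highest signals of 2.9 and 2.1.

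NOS3, the endothelial nitric oxide synthase, was low and even. It read 3.9, 3.7, 3.6, 3.5 and 3.8 in rounded, 3.2, 3.2, 3.8, 3.4 and 3.5 in columnar, 3.6, 3.5, 3.6 and 3.9 in large, and 3.3, 3.1, 3.4, 3.6 and 4.3 in atretic follicles. All groups overlapped, with the fifth atretic follicle above every other array. The differences were 0.09 for large and -0.02 for atretic against small healthy follicles (limma adjusted p = 0.698 and 0.936). Rounded minus columnar was 0.28, with an unadjusted limma p of 0.0439 and an adjusted p of 0.996.

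**Figure D2:**
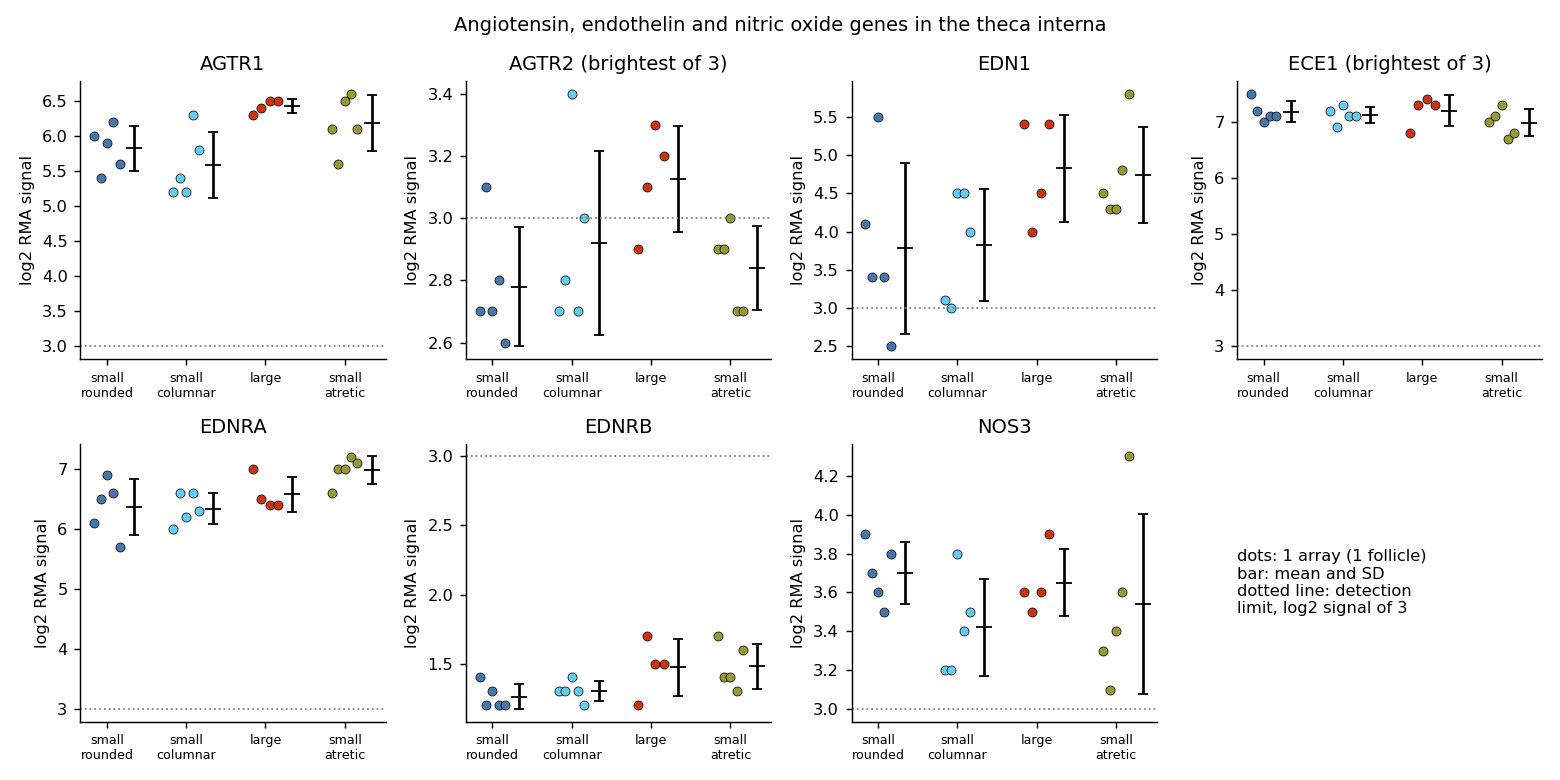
Log2 signal (vertical axis, its range differing between panels) of the 7 genes by follicle group, 1 dot per follicle with the group mean and SD; the dotted line marks the limit of detection at 3. EDNRB and most AGTR2 signals lie under the line, and EDN1 has the widest spread within groups.

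Counted over the probe sets, 1 of the 8 tested in large against small healthy follicles passed, AGTR1, beside 3.58% of all 15570 tested probe sets, and 3 had an unadjusted p under 0.05, beside 24.4% of all. In atretic against small healthy follicles 1 of 7 passed, EDNRA, beside 31.9% of all 15470 (16.9% as higher and 15.1% as lower), and 3 had an unadjusted p under 0.05, beside 45.2% of all. The median difference was 0.25 over the 8 members and -0.01 over all tested probe sets in the first comparison, and -0.02 over 7 and 0.01 over all in the second. These comparisons share the 10 small healthy follicles and are not independent of each other. No member passed both the test and the 2-fold limit, which 0.706% and 3.68% of all probe sets did. In atretic against large follicles 0.274% did.

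No member passed in atretic against large follicles, where 0.776% of 15722 probe sets did by limma (0.363% as higher and 0.413% as lower), and 2 of the 8 members had an unadjusted p under 0.05 beside 17.2% of all. The dimmest ECE1 probe set had the lowest adjusted p, with a difference of -0.75 (limma adjusted p = 0.115). It passed without large follicle 1 at -1.02 (limma adjusted p = 0.00978) or without atretic follicle 3 at -0.88 (limma adjusted p = 0.0446). Of 28 alternative fits it passed in 3. Between rounded and columnar follicles limma called 0 of 15570 probe sets, or 0%, with 360, or 2.31%, at an unadjusted p under 0.05, and 1 of the 8 members, NOS3, was among those.

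**Figure D3:**
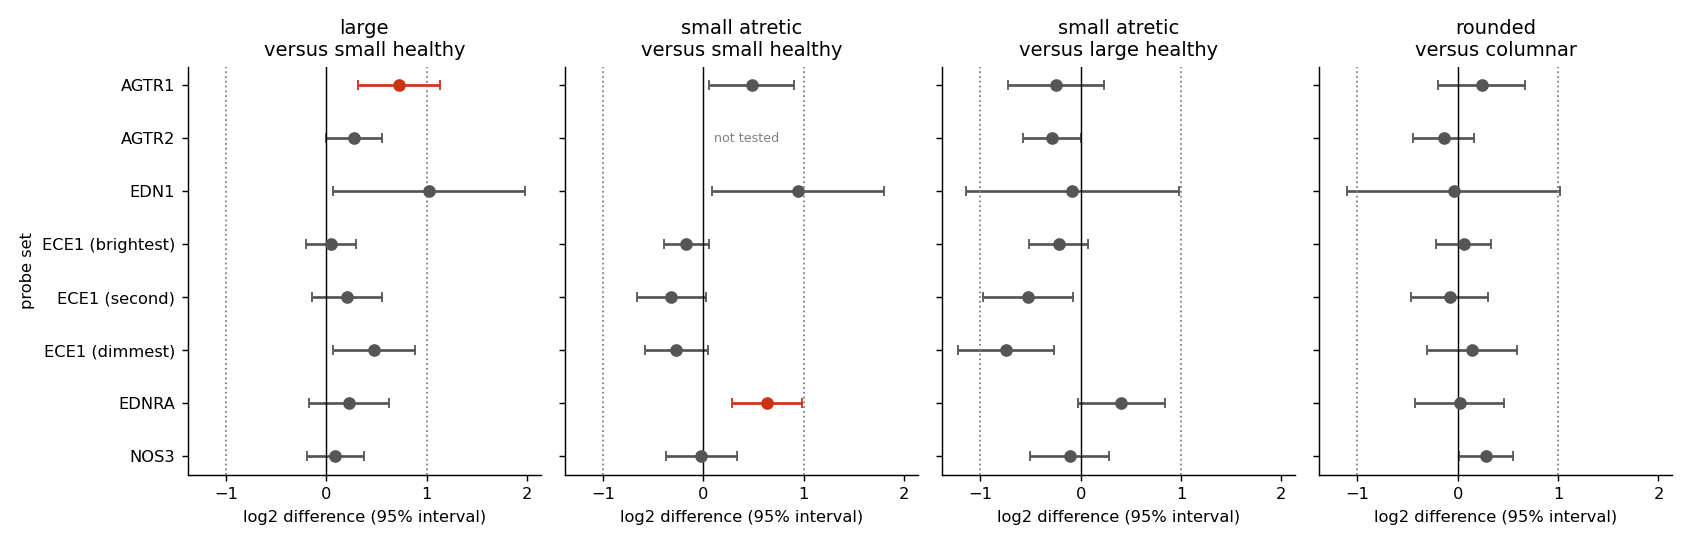
Log2 difference (horizontal axis) with its 95% interval for the tested member probe sets in the 4 comparisons (7 in atretic against small healthy follicles, where AGTR2 was not tested, and 8 in the others), red where the limma adjusted p was under 0.05. AGTR1 in large and EDNRA in atretic follicles, each against small healthy follicles, are the red points, and EDN1 has the widest intervals.

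Marker genes of other cell types were measured on the same arrays. In large follicles the endothelial genes averaged 5.79 against 5.43 in small healthy ones, and smooth muscle and pericyte genes 6.53 against 6.03 (exact permutation p = 0.00899 and 0.00999, Benjamini-Hochberg adjusted 0.0799 for both over 40 such tests). Immune cell genes averaged 4.78 against 4.25 and fibroblast genes 10.31 against 10.09 (exact permutation p = 0.0280 and 0.0290, adjusted 0.145 for both), so none of these marker means passed the adjustment. By limma, 1 of 11 endothelial, 2 of 11 smooth muscle and pericyte, 1 of 8 immune and 2 of 6 fibroblast genes passed as higher in large follicles, beside 2.59% of all probe sets. Of the other lists, 1 of 9 granulosa, 1 of 3 epithelial and 0 of 6 thecal steroidogenic genes passed as higher, and 1 granulosa gene passed as lower. The spiked poly-A control signals were also higher in large follicles, 5.39 against 4.23 (exact permutation p = 0.000999, adjusted 0.020). The part of these in the AGTR1 result was not tested.

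In atretic follicles immune cell genes averaged 5.58 against 4.25 in small healthy follicles (exact permutation p = 0.000333, the smallest this design allows, adjusted 0.0133). By limma 8 of 8 passed as higher, beside 16.9% of all probe sets. The per-array immune mean ran from 4.81 to 6.11 in atretic and from 3.69 to 4.74 in small healthy follicles. Smooth muscle and pericyte genes, with 3 of 11 higher and 2 lower (beside 16.9% and 15.1% of all probe sets), averaged 6.20 against 6.03 (exact permutation p = 0.285). Thecal steroidogenic genes averaged 7.91 against 8.54 (exact permutation p = 0.137, adjusted 0.366) and granulosa genes 5.57 against 5.94 (exact permutation p = 0.0806, adjusted 0.293). Fibroblast genes averaged 10.26 against 10.09 (exact permutation p = 0.0669, adjusted 0.268). By limma, 1 of 6 steroidogenic and 2 of 7 granulosa genes passed as lower, and 1 of 7 granulosa and 1 of 6 fibroblast genes as higher, beside the same shares. The part of any of these cell types in the EDNRA result was not tested.

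Across arrays NOS3 was correlated with the endothelial genes. Over the 19 arrays, with group means removed, its Pearson correlation with the mean of 12 endothelial genes was 0.81 and Spearman's rho 0.74 (permutation p = 6.0e-05 and 0.00041, the first 0.00072 after adjustment over 12 relations), and r was 0.76 without the 2 arrays farthest from the median. Over the 10 small healthy arrays alone r was 0.76 and rho 0.69 (permutation p = 0.00997 and 0.0337, the first 0.120 after adjustment over 12 relations), but r fell to 0.21 without the 2 farthest arrays, so that relation rests on those. EDN1 had an r of 0.58 and a rho of 0.66 with the endothelial mean over the 19 arrays (permutation p = 0.00822 and 0.00257, the first 0.0493 after adjustment), and r was 0.47 without the 2 farthest arrays. No other member passed the adjustment. Over the 14 healthy arrays neither relation passed it, with an r of 0.56 for NOS3 and 0.65 for EDN1 (permutation p = 0.0370 and 0.0106, 0.154 and 0.127 after adjustment). The p-values over 19 arrays came from permuting values across groups after group means were removed, which makes them somewhat too small. The planned test was over the 10 small healthy arrays, where no relation passed.

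**Figure D4:**
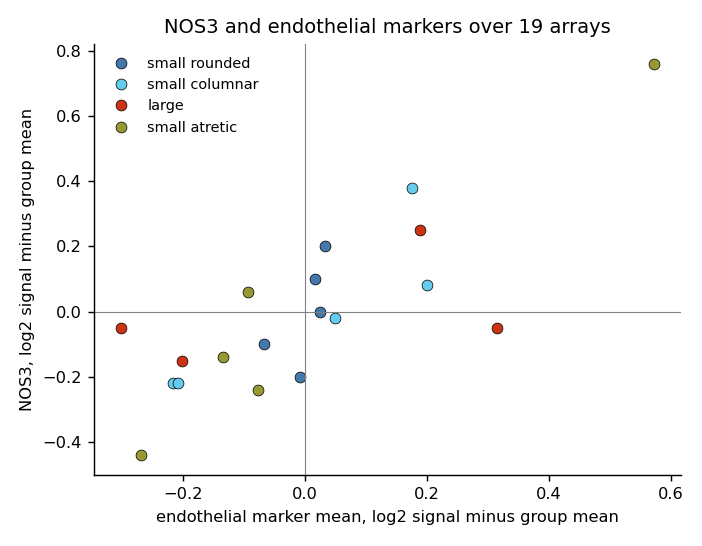
NOS3 log2 signal (vertical axis) against the mean log2 signal of the endothelial genes (horizontal axis) in 19 follicles, group means removed from both. The fifth atretic follicle is at the upper right, 0.76 above its group mean for NOS3 and 0.57 above it for the endothelial genes.

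The genes most like each member were sought among 9728 tested probe sets with a single symbol, by Pearson correlation over the 19 arrays with group means removed. For NOS3 these were TIE1, an endothelial receptor kinase and one of the 12 endothelial genes (r = 0.85), RENBP (r = 0.84) and SMOC2 (r = 0.83). For EDNRA they were KANK2 (r = 0.88), TNFRSF25 (r = 0.85) and SMARCA2 (r = 0.84), and for EDN1 they were FLT3LG (r = 0.87), EHMT2 (r = 0.87) and PPP1R3C (r = 0.85). For AGTR1 they were TOB2 (r = 0.83), IL34 (r = 0.77) and ACBD5 (r = 0.76), for AGTR2 C5H12orf57, ANTKMT and LOC338087 (r = 0.74 each), and for the brightest ECE1 probe set SLC38A2 (r = 0.90), TBC1D4 (r = 0.90) and CCDC69 (r = 0.88). Most signals of the AGTR2 probe set were at or below the limit of detection. Each r is among the highest of 9728, so its size is no test of a relation.

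Of 74 other genes of these pathways, 49 had a probe set annotated with the gene as its single symbol, and each was described by its brightest. The others were not analysed. RGS2 was among them, although the study listed a probe set of RGS2 as higher in large follicles. In large against small healthy follicles 3 of 39 tested rose and 0 fell, beside 2.59% of all probe sets higher and 0.983% lower, with a median difference of 0.06. ANPEP, an aminopeptidase that trims angiotensin peptides, rose by 1.04 (limma adjusted p = 0.00562), CAV1, which encodes caveolin-1, a protein that holds endothelial nitric oxide synthase inactive, rose by 0.70 (limma adjusted p = 0.0363), and ASL, an enzyme that regenerates arginine for nitric oxide synthesis, rose by 0.47 (limma adjusted p = 0.0384). AGT, the angiotensin precursor, came next, with a difference of -0.33 that did not pass (limma adjusted p = 0.0818). The dimmer CAV1 probe set also rose, by 1.28 (limma adjusted p = 0.0221), whereas the dimmer ASL probe set gave -0.14 and did not pass (limma adjusted p = 0.369). For PLN, which encodes phospholamban, the brightest probe set did not pass while its 2 dimmer ones did, at 0.70 and 1.17. For HSP90AA1, a chaperone that binds nitric oxide synthase, the brightest gave -0.11 and did not pass, while a dimmer one passed at 1.11.

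In atretic against small healthy follicles 7 of the 40 tested rose and 4 fell, with a median of 0.03. ASS1, which makes the substrate of ASL, fell by 1.16 (limma adjusted p = 0.00157), while ASL rose by 0.52 on its brightest probe set and gave -0.14 on the dimmer one, which did not pass (limma adjusted p = 0.137). Of the renin-angiotensin genes, AGTRAP, a protein that binds the receptor AGTR1, rose by 0.63 and the aminopeptidase RNPEP by 0.39, while ATP6AP2, the prorenin receptor, fell by 0.53 and AGT by 0.28. EDN2, the precursor of another endothelin, fell by 0.36. NOSIP, which binds nitric oxide synthase, rose by 0.59 on its brightest probe set (a dimmer one, at 0.35, did not pass), DDAH2, which removes a nitric oxide synthase inhibitor, by 0.43, and of the receptor signalling genes PLN rose by 0.87 and PLCB4 by 0.49. A dimmer probe set of AKT1, a kinase that activates endothelial nitric oxide synthase, also passed, at -0.28. The 11 of 40 are to be read beside the 31.9% of all probe sets that passed.

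In atretic against large follicles 1 of 40 passed, ANPEP, which fell by 1.30 (limma adjusted p = 0.0328). The next by p were ITPR3, an inositol trisphosphate receptor, at -0.61, CAV1 at -0.81 and ASS1 at -0.68, none of which passed, although a dimmer CAV1 probe set did, at -1.65. Between rounded and columnar follicles none of 39 passed by limma, and the smallest p belonged to NOS2, the inducible nitric oxide synthase, at 0.62, EDN2 at -0.28, NOSTRIN, which binds endothelial nitric oxide synthase, at 0.34, and AGT at -0.20 (adjusted p = 0.996 for each).

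**Figure D5:**
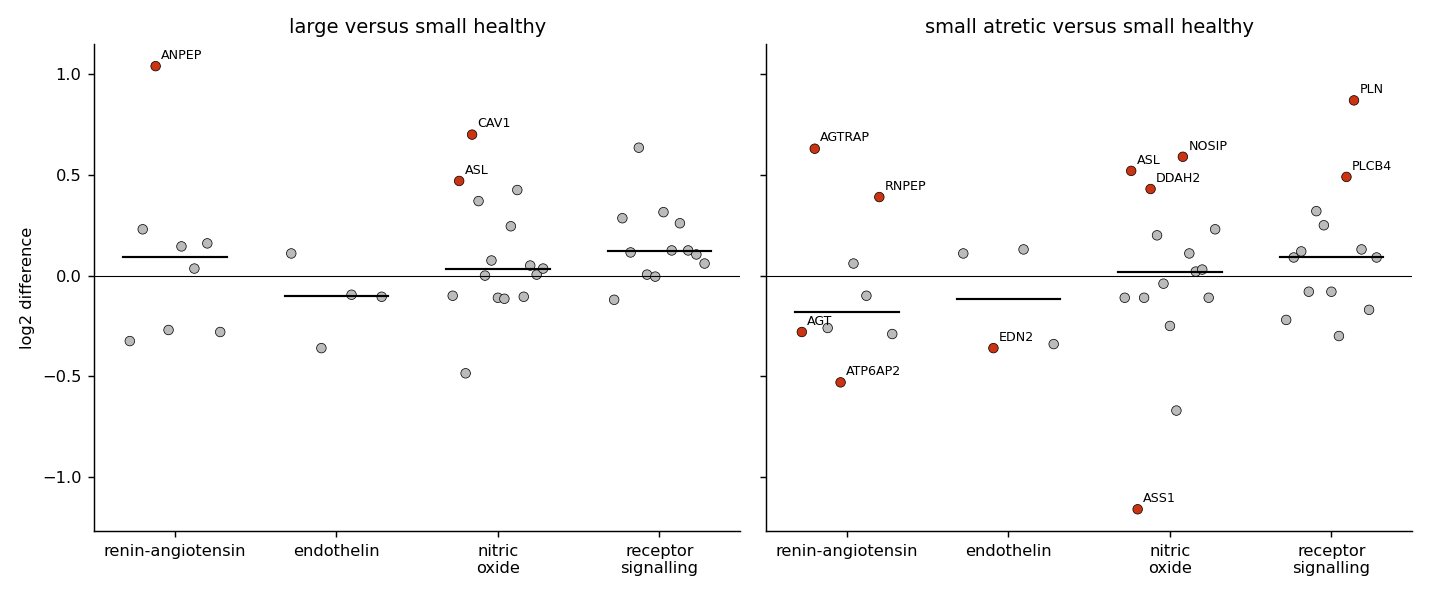
Log2 difference (vertical axis) of the other pathway genes, by pathway (horizontal axis), in large and in atretic against small healthy follicles, red where the limma adjusted p was under 0.05, with a line at the median. ANPEP lies highest in large follicles at 1.04, and ASS1 lowest in atretic follicles at -1.16.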

How the data were processed

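The authors deposited log2 signals of 19 arrays, 1 value per probe set, made with RMA (background correction, quantile normalisation and log2 transformation) in Partek version 6.5 and rounded to 1 decimal. Rounding limits small differences. The sources used here do not say which arrays shared a normalisation. The labels name a different extraction kit for each follicle type, whereas the study's methods give a single procedure. Groups came from the titles. Probe sets were named from the array's annotation table. Control probe sets were left out, and a probe set was tested where its log2 signal exceeded 3 in 50% or more of the arrays from any single follicle type. The test was limma 3.58.1 in R 4.3.3, p-values were adjusted by Benjamini-Hochberg across the tested array, and the threshold was 0.05. Large against small healthy and rounded against columnar were fitted over the 14 healthy arrays. The fit was tested on simulated data with independent noise and no kit or batch effect, so this says nothing about such effects here. Group means of each member probe set and of each marker mean were compared by exact two-sided permutation tests. All members were named, with the other pathway genes that passed (or, if under 4 did, the 4 of lowest p) and the 3 genes most like each member. The members and all gene lists were chosen with earlier results of these data known. Alternatives varied the filter, scaling, test, samples and control group, left out each array in turn, and used the replicate number as a block. The number of arrays limits the precision.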

Additional observations from a re-analysis of the deposited data

Results flagged for a closer look

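Of 44 sets of follicles (11 probe sets in 4 groups), 6 held an array farther from the others than Dixon's limit at the 95% level. In 4 of the 6 this was large follicle 1. Chance flags about 5% of independent sets, but these sets share arrays and the ECE1 probe sets moved together. Values were also rounded to 1 decimal, so the count is no test of an excess. EDNRA was 7.0 in large follicle 1, above the other 3 at 6.4 to 6.5. The brightest ECE1 probe set was 6.8 in large follicle 1, below the other 3 at 7.3 to 7.4. The dimmest ECE1 probe set was 3.7 in large follicle 1, below the other 3 at 4.7 to 4.9. The second ECE1 probe set was 5.9 in atretic follicle 3, above the other 4 at 4.8 to 5.1. The second AGTR2 probe set was 2.7 in rounded follicle 2, and the dimmest AGTR2 probe set was 1.9 in large follicle 1, both below the limit of detection.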

How the results depend on the processing

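AGTR1 in large against small healthy follicles kept its direction under all 25 alternatives (0.61 to 0.85, limma adjusted p 0.031 to 0.214) but passed in 5. The count of members that passed there, 1, was 0 with the replicate block, no filter, the stricter filter, centring, the unmoderated ANOVA, the intensity trend, rounded or columnar follicles alone as controls, and without large follicle 2 and columnar follicle 1, and 0 to 1 leaving out 1 array. EDNRA in atretic follicles passed in 25 of 26 alternatives (0.55 to 0.73). In that fit, leaving out large follicle 2 and columnar follicle 1 removed only columnar follicle 1. The atretic count, 1, was 2 with the replicate block (AGTR1 at 0.48, adjusted p = 0.0325) or no filter (where the undetected EDNRB passed), 3 with array weights, 0 against rounded follicles alone, and 1 to 3 leaving out 1 array, with 0 to 1 at 2-fold. Atretic against large, 0 members, gave 1 with array weights and 0 to 1 leaving out 1 array, with or without the 2-fold limit. Same-numbered arrays deviated together with correlations of -0.34 to 0.57, and the numbers were not taken as pairs. Between rounded and columnar arrays the mean correlation was 0.21 for the same number and -0.057 for different numbers. Whether these were paired was not tested. With the replicate block, AGTR1 in large follicles was 0.72 (adjusted p = 0.0575). Over all probe sets, the 557 in large follicles were 341 with the block, 339 by ANOVA, 1078 with weights, 18 and 258 against rounded or columnar follicles alone, 159 without large follicle 2 and columnar follicle 1, and 154 to 982 leaving out 1 array. The 4939 in atretic follicles were 244 against rounded follicles alone and 2978 to 5690 leaving out 1 array, and the 122 in atretic against large were 0 in a fit of those 9 arrays, 2 without large follicle 2 and columnar follicle 1, 17 by ANOVA, 381 with weights, and 2 to 536 leaving out 1 array. Signs turned only for values that had not passed: NOS3 in large against rounded follicles (-0.05) and atretic against columnar (0.12), and rounded minus columnar EDN1 with array weights (0.25) and EDNRA without large follicle 2 and columnar follicle 1 (-0.065). Leaving out 1 array gave ranges over 0 for the brightest ECE1 probe set (-0.017 to 0.18) in large follicles, for EDN1 (-0.47 to 0.28), EDNRA (-0.12 to 0.19) and ECE1 (brightest -0.02 to 0.11, second -0.16 to 0.04) between rounded and columnar, for NOS3 (-0.21 to 0.09) in atretic against small healthy and for EDN1 (-0.36 to 0.11) in atretic against large follicles. Of 12 relations with marker means 0 passed over the small healthy arrays, 0 over the 14 healthy arrays and 2 over 19. Turned correlations were, with the endothelial mean, AGTR1 -0.51 and EDN1 -0.20 without the 2 farthest arrays, AGTR2 -0.059 over 19, EDNRA 0.31 over 14 and 0.16 over 19, and ECE1 -0.078 and -0.34, and with the smooth muscle and pericyte mean, AGTR1 0.34 over 14, AGTR2 -0.27 over 19 and -0.44 without the 2 farthest, EDN1 0.24 and 0.067, and EDNRA 0.17 and 0.00086. The cause was not tested.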
